A study of Mus musculus with 15 samples.

Results

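The genes described here are 8 mouse genes of the route from phosphoinositide 3-kinase (PI3K) through the kinase AKT to the transcription factor FOXO1: Pik3ca, Pik3cb, Pik3cd, Pik3cg, Pik3r1, Pik3ap1, Akt1 and Foxo1. They were taken by symbol from a table of 51912 Ensembl genes, and all 8 passed the filter on low counts that left 15692 genes. Another 93 genes of the same pathway, in 8 lists, were described beside them. The 15 libraries form 5 groups of 3 biological replicates from wild-type mouse B cells with no further treatment. D6 is the unsorted bulk culture at day 6, grown on a fibroblast feeder line named 40LB in the presence of 100 ng/ml IL-4. For the other 4 groups the cells were removed from the feeders, left for 2 more days in RPMI with no stimulus, and sorted at day 8 by isotype (IgE or IgG1) and by stage, where PC stands for plasma cell and iGC is the labels' name for cells of germinal centre type made in culture. The same 6 days of IL-4 and feeder cells lie behind all groups, and the cells are products of culture rather than cells taken from an immune response.

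Class I PI3Ks turn the membrane lipid PIP2 into PIP3 when a receptor is engaged. PIP3 draws AKT to the membrane, and active AKT phosphorylates FOXO1, which then leaves the nucleus and no longer drives its target genes. In B cells the route runs below the antigen receptor and the IL-4 receptor, and it is known for its roles in survival, class switching and the choice between the germinal centre and the plasma cell fate. RNA levels do not report kinase activity or the place of FOXO1 in the cell.

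The libraries held between 17.7 M and 54.1 M expected counts, where M is the usual mega prefix. Plasma cell marker genes (6 listed, among them Sdc1, Prdm1 and Jchain) summed to between 16299 and 18767 CPM in IgE PC, between 9102 and 13380 CPM in IgG1 PC and at most 741 CPM elsewhere. Between the PCs 4 of these 6 were higher and none lower in IgE (median log2 difference 0.78). The 6 B cell markers summed to between 3771 and 3977 CPM in IgE PC and between 5023 and 5244 CPM in IgG1 PC, with 3 lower and none higher in IgE (median -0.50). The iGC groups also differed in plasma cell markers, with 647 to 741 CPM for IgE and 371 to 391 CPM for IgG1 (3 of 6 higher in IgE, median 0.62), and in none of the B cell markers. The 7 T cell markers summed to at most 4.70 CPM in a library, with Cd3e at 0 in all 3 libraries of 4 of the groups, and the 1 that could be tested was lower in IgE PC than in IgG1 PC (-3.26). The 8 myeloid markers summed to between 10.2 and 27.1 CPM, and 3 of the 4 tested were lower in IgE PC than in IgG1 PC (median -2.09). The part of these differences in the isotype results below was not tested. Immunoglobulin genes took between 15.3% and 21.7% of the counts in PC libraries and between 1.39% and 1.62% in the others. Library 1 of IgG1 PC stood apart from its group: it had the highest immunoglobulin share of all (21.7% against 15.3% and 16.1%), so each member value whose call changed, or that moved by over 1.5 times, without it is given both ways. CPM, the counts of a gene set to a common library size, are scaled here by TMM factors, which set the bulk of genes level between libraries. With scaling to the plain total count, the median of all genes in PC cells fell by 0.55 (IgE) and by 0.22 (IgG1) on the log2 scale against iGC cells, and that of IgE PC fell by 0.30 against IgG1 PC, so a small change in PC cells can lose its sign there, and such cases are named.

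Pik3cg and Akt1 had, within their promoter windows, the 7 bases GTAAACA, the core to which forkhead factors such as FOXO1 bind. Both strands were searched, so the match may also read as its reverse complement, TGTTTAC. These windows run from 250 bases before to 50 bases after a RefSeq transcript start (build GRCm38.p6) and are printed because they are the only ones among the members' 13 windows with that match, which is in capitals. The first is the downstream one of 2 Pik3cg starts, at chr12:32208421-32208720 on the minus strand, with the match 92 bases before the start. That start lies 189 bases downstream of the annotated gene start, so the match lies within the annotated gene. The second is the upstream one of 2 Akt1 starts, at chr12:112674835-112675134 on the minus strand, with the match 161 bases before the start.
Pik3cg: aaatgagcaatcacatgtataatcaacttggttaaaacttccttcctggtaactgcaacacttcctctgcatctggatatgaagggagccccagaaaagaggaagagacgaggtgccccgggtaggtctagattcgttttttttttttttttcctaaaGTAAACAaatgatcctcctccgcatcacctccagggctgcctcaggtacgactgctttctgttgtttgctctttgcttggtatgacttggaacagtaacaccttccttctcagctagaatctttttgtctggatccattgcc
Akt1: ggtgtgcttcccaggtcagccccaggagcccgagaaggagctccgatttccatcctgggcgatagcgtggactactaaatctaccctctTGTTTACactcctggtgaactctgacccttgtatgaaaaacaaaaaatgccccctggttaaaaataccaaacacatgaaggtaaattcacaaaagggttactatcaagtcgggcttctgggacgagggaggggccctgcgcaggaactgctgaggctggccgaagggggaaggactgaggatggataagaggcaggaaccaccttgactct
The same 7 bases lay in 1199 of 32851 mouse promoter windows of this length, or 3.65%, and in 3 of 20 windows of the listed FOXO1-linked B cell genes (Bcl2l11, Sesn1 and Btg1). A match describes letters only and shows no binding.

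Of the 4 catalytic subunits, Pik3cg had the widest range. It encodes the gamma subunit, which is coupled to G protein-linked receptors, and lies at chr12:32173473-32208659 (GRCm38, minus strand). In D6 its level was 0.749, 0.806 and 0.787 CPM, from 31 to 34 expected counts a library. It was 29.4, 27.5 and 28.6 CPM in IgE iGC and 17.3, 15.2 and 15.8 CPM in IgG1 iGC. The highest levels were those of IgE PC, at 127.8, 119.9 and 132.5 CPM, followed by IgG1 PC at 81.9, 73.9 and 75.6 CPM. No 2 groups overlapped, and all 4 neighbouring steps in the order of levels passed the test, which is edgeR's quasi-likelihood test with Benjamini-Hochberg adjustment over all genes and a threshold of 0.05. From iGC to PC, Pik3cg rose by 2.15 on the log2 scale (SE 0.06, adjusted p = 1.67e-13) in IgE cells and by 2.26 (SE 0.06, adjusted p = 2.29e-13) in IgG1 cells. These were rises of 4.44-fold and 4.78-fold. The difference between both rises was -0.11 with a 95% interval from -0.29 to 0.08 and did not pass (adjusted p = 0.352), although it was -0.34 and passed with total-count scaling (adjusted p = 0.00151). Without library 1 of IgG1 PC it was -0.06. Against IgG1 cells of the same stage, IgE cells had more Pik3cg RNA both as iGC cells (log2 difference 0.82, SE 0.06, adjusted p = 3.65e-06) and as PCs (0.72, SE 0.06, adjusted p = 7.57e-08). The plasma cell markers moved with it in both comparisons, with 3 and 4 of 6 higher in IgE cells. In bulk RNA of this kind, more RNA per cell and more cells that carry the RNA cannot be told apart.

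Pik3cd encodes the delta subunit, the main catalytic subunit of lymphocytes, and lies at chr4:149649168-149702571 (minus strand). It stood at 106.4, 104.4 and 99.7 CPM in D6. In the 4 sorted groups it was higher, by at least 2.31-fold in CPM. In TPM, which is scaled for length and library total, IgE PC had only 61.4 ± 1.98 against 53.8 ± 0.810 in D6. The CPM levels were 272.4, 276.7 and 281.4 CPM in IgE iGC and 282.3, 285.0 and 278.8 CPM in IgG1 iGC. PCs of the isotypes parted: IgE PC had 236.5, 243.0 and 237.4 CPM, below every iGC library, and IgG1 PC had 349.8, 308.8 and 328.4 CPM, above every other library. The drop in IgE cells was -0.21 on the log2 scale (SE 0.05, adjusted p = 0.00187). In IgG1 cells Pik3cd rose by 0.22 (SE 0.05, adjusted p = 0.00165), a direction that was not kept with total-count scaling (-0.01), with TPM (-0.57) or with TMM-scaled TPM (-0.02). The difference between both changes was -0.43 (SE 0.07, adjusted p = 0.000227), and between the PCs it was -0.46 (SE 0.05, adjusted p = 2e-06). Both iGC groups overlapped for this gene (adjusted p = 0.891).

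Pik3ca, at chr3:32397671-32468486 on the plus strand, encodes the alpha subunit, which is found in most tissues. Its level was 185.2, 165.7 and 184.6 CPM in IgE PC, and all 3 lay above every other library. The next group was IgE iGC at 124.6, 117.0 and 130.7 CPM, and D6 was lowest at 88.4, 88.0 and 86.7 CPM. IgG1 cells showed no such peak, with 114.1, 108.6 and 109.9 CPM as iGC cells and 92.5, 114.0 and 98.4 CPM as PCs. IgE PC exceeded IgG1 PC by 0.81 on the log2 scale (1.75-fold, SE 0.07, adjusted p = 1.87e-07). Within IgE cells Pik3ca rose by 0.53 from iGC to PC (SE 0.07, adjusted p = 9.34e-06), but the value was 0.05 and did not pass with total-count scaling, and it was -0.13 in TPM. In IgG1 cells the value was -0.12 (SE 0.07, adjusted p = 0.149), which passed without library 2 of IgG1 PC (-0.23, adjusted p = 0.00391) and with total-count scaling (-0.35, adjusted p = 0.00181), and which was -0.06 without library 1 of IgG1 PC (adjusted p = 0.435). The changes differed by 0.65 (SE 0.10, adjusted p = 0.000131).

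Pik3cb, which encodes the beta subunit, was the least abundant member and is at chr9:99036654-99140621 on the minus strand. In D6 it had 3.93, 4.50 and 5.20 CPM. All sorted libraries lay lower, between 0.724 and 1.96 CPM. Its expected counts ran from 23.6 to 205 and were fractional in all 15 libraries, as RSEM gives where reads also match another gene. IgG1 PC libraries held 1.71, 1.66 and 1.79 CPM, and IgE PC libraries held 0.900, 0.979 and 0.837 CPM. The PC groups did not overlap, and IgE PC was lower by 0.92 on the log2 scale (log2 difference -0.92, SE 0.25, adjusted p = 0.0054), a call that did not pass on log2(TPM + 1) (-0.21, adjusted p = 0.0647). The rise of 0.70 from IgG1 iGC to IgG1 PC (SE 0.24, adjusted p = 0.0224) did not pass with total-count scaling (0.47), with any TPM setting, in a fit on these 6 libraries alone (0.72), or without library 3 of IgG1 iGC (0.49, adjusted p = 0.11), library 1 of IgG1 iGC (0.71) or library 3 of IgG1 PC (0.66). In IgE cells the change was -0.61 (SE 0.26, adjusted p = 0.053), but -1.07 with total-count scaling and -0.79 without library 2 of IgE iGC, both of which passed. The changes differed by -1.30 (SE 0.36, adjusted p = 0.00824), a call that did not pass on log2(TPM + 1) or on TMM-scaled TPM (-0.30 and -0.29, adjusted p = 0.0915 and 0.0541).

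The summed level of 8 fibroblast markers (among them Col1a1, Col1a2 and Dcn) put the 5 group means in the same order as Pik3cb did. Among the sorted groups no neighbouring step in the Pik3cb order passed (adjusted p = 0.285, 0.560 and 0.468), so that order is not resolved there. Between the iGC groups none of the tested fibroblast markers passed. That sum was between 230.3 and 348.3 CPM in D6, between 72.4 and 187.5 CPM in IgG1 PC and between 23.1 and 35.9 CPM in IgE PC. The iGC groups fell between, at 55.2 to 74.0 CPM for IgE and 38.8 to 67.2 CPM for IgG1, and Lum was at 0 in all IgE libraries. From IgE PC to IgG1 PC 6 of the 7 tested markers were higher in IgG1, and the 40LB feeder line is a fibroblast line. Library 2 of IgG1 PC had the lowest sum of its group (72.4 CPM), while its Pik3cb level of 1.66 CPM was close to the 1.71 and 1.79 CPM of the other 2 libraries, whose sums were 185.5 and 187.5 CPM. The part of feeder RNA in the Pik3cb values was not tested.

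**Figure D1:**
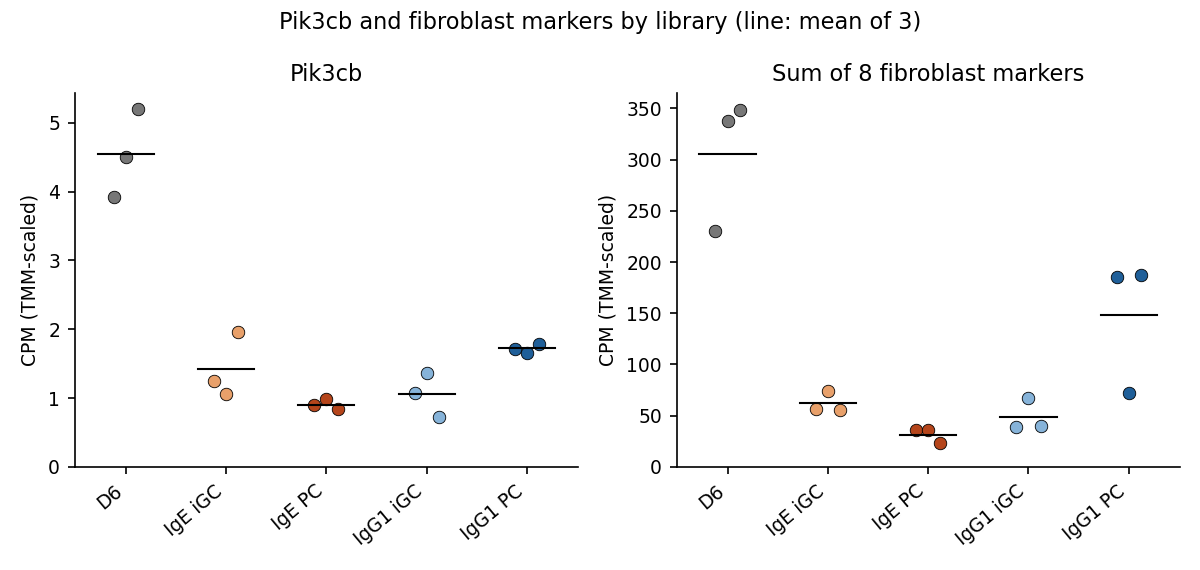
Pik3cb level (left) and the summed level of 8 fibroblast marker genes (right) in each library, both in TMM-scaled CPM on linear axes that start at 0; points are libraries and lines are means of 3. D6 is highest in both panels and IgE PC has the lowest mean in both, at 23.1 to 35.9 CPM for the markers.

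Levels of different genes were compared per transcript length, in TPM, the authors' unit that divides by length and sets a common total. Pik3cd had the largest share of the summed TPM of the 4 catalytic subunits in every library. That share was 61.7%, 65.5% and 67.8% in D6, 72.9% ± 3.93 (SD, n = 3) in IgE iGC, 77.6% ± 1.27 in IgG1 iGC and 72.5% ± 1.32 in IgG1 PC. In IgE PC its share was 50.9% ± 1.63, and no library of another group was that low. The remainder there was Pik3ca at 27.2% to 32.1% and Pik3cg at 19.1% ± 1.19, while in IgG1 PC these were 13.5% to 16.8% and 12.2% ± 0.492. A Pik3ca share of that size was not particular to IgE PC. It was 32.8% ± 3.39 in D6, 22.1% ± 3.78 in IgE iGC and 19.5% ± 1.34 in IgG1 iGC. Pik3cg had 0.393% ± 0.0778 of the sum in D6, and Pik3cb had at most 2.19% in a library. IgE PC and IgG1 PC did not overlap for any of the 4 subunits, but 3 libraries against 3 allow no exact permutation p below 0.1. Each of these 4 comparisons had that p (two-sided, 0.123 after adjustment over 16 comparisons). The 4 shares of a library make up the whole sum, so a lower Pik3cd share is matched by a higher share of the rest. These 4 comparisons are therefore not separate observations. A share within the sum does not depend on how libraries are scaled to each other.

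**Figure D2:**
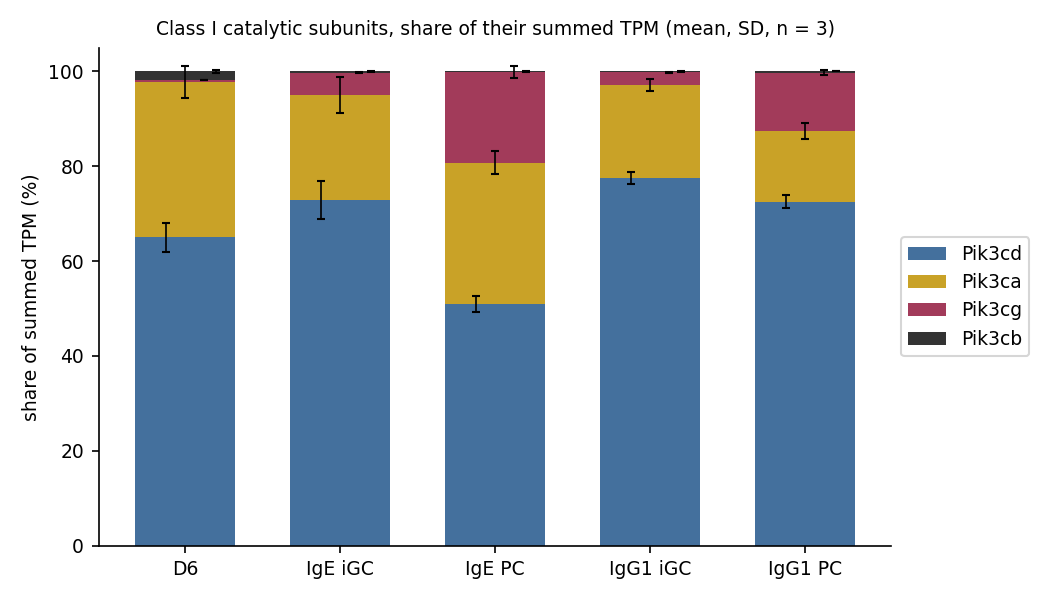
Share of each class I catalytic subunit in their summed TPM, in percent, for the 5 groups; stacked bars are means and error bars are the SD of 3 libraries, drawn at the top of each segment. Pik3cd falls to 50.9% in IgE PC, where Pik3cg reaches 19.1%.

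Pik3r1 encodes the regulatory subunit that holds and stabilises the alpha, beta and delta catalytic subunits, and lies at chr13:101680563-101768217 on the minus strand. In CPM it was close over 4 groups: 97.0, 83.7 and 86.4 CPM in D6, 86.9, 88.9 and 103.9 CPM in IgE iGC, 90.5, 87.0 and 86.7 CPM in IgG1 iGC, and 86.8, 82.9 and 83.2 CPM in IgE PC. No contrast among those 4 passed. The IgE PC values were lower on other scales: against IgE iGC the change of -0.14 was -0.61 with total-count scaling and -0.81 in TPM, and against D6 it was -0.61 and -0.83, all of which passed. IgG1 PC was lower, with 49.2, 73.8 and 64.1 CPM, and did not overlap any other group. Its change from IgG1 iGC was -0.49 on the log2 scale (SE 0.11, adjusted p = 0.00145), or -0.35 without library 1, the lowest (adjusted p = 0.00142). IgE PC exceeded IgG1 PC by 0.43 (SE 0.11, adjusted p = 0.00397), by 0.29 without that library (adjusted p = 0.00557), and by 0.17 with total-count scaling, where it did not pass (adjusted p = 0.268). It did not pass in TPM either (0.36 and 0.40, adjusted p = 0.109 and 0.0989, with 1 and 0.1 added). The changes from iGC to PC did not differ between the isotypes by the test (0.35, SE 0.16, adjusted p = 0.0854), though they did without library 2 of IgG1 PC (0.49, adjusted p = 0.00754) or library 3 of IgE iGC (0.44, adjusted p = 0.0455) and in TMM-scaled TPM (0.54, adjusted p = 0.049). Without library 1 of IgG1 PC the value was 0.21 (adjusted p = 0.118).

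Pik3ap1, at chr19:41272377-41385102 on the minus strand, encodes BCAP, an adaptor that brings PI3K to the antigen receptor. Its iGC levels were alike in both isotypes, at 256.7, 265.3 and 255.0 CPM for IgE and 265.7, 256.2 and 253.2 CPM for IgG1. PC levels lay well below them, at 135.4, 132.3 and 121.2 CPM for IgE and 114.8, 160.2 and 162.9 CPM for IgG1, and D6 lay between at 209.0, 207.6 and 214.5 CPM. From iGC to PC it fell in IgE cells to 0.501 of the iGC level (SE 0.10 on the log2 scale, adjusted p = 2.18e-07) and in IgG1 cells to 0.566 of it (SE 0.10, adjusted p = 3.64e-06). The PC groups overlapped and did not pass (-0.17, 95% interval from -0.38 to 0.03, adjusted p = 0.141). Library 1 of IgG1 PC, at 114.8 CPM, decided that: without it the difference was -0.32 (adjusted p = 4.07e-05), and the changes from iGC to PC then differed between the isotypes by -0.32 (adjusted p = 0.000891) in place of -0.18 (adjusted p = 0.326). With total-count scaling the PC difference was -0.43 and also passed (adjusted p = 0.00688).

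Akt1, the AKT kinase of most tissues, is at chr12:112653821-112674884 on the minus strand. IgE PC held 127.0, 132.8 and 135.2 CPM, below all 12 other libraries. The other groups had 190.4, 186.2 and 186.0 CPM in D6, 184.3, 190.4 and 181.0 CPM in IgE iGC, 182.3, 179.0 and 173.0 CPM in IgG1 iGC and 179.4, 152.7 and 171.0 CPM in IgG1 PC. Among these, IgG1 PC was lower than D6 (-0.16, adjusted p = 0.0194) and than IgE iGC (-0.14, adjusted p = 0.0435). Akt1 fell from iGC to PC in IgE cells by 0.49 on the log2 scale (SE 0.06, adjusted p = 1.66e-06). In IgG1 cells the value was -0.09 (SE 0.06, adjusted p = 0.203), or -0.14 without library 1 of IgG1 PC (adjusted p = 0.0297) and -0.32 with total-count scaling (adjusted p = 9.1e-05). It also passed on log2(TPM + 1) at -0.70 and in TMM-scaled TPM at -0.15. The changes differed by -0.41 (SE 0.08, adjusted p = 0.000964). IgE PC was also below IgG1 PC (-0.35, SE 0.06, adjusted p = 9.72e-05).

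Foxo1, at chr3:52268336-52353221 on the plus strand, was lowest in D6 (120.2, 108.3 and 105.4 CPM) and highest in IgE PC (196.9, 188.2 and 200.1 CPM). IgE iGC had 184.3, 177.4 and 172.5 CPM, IgG1 iGC had 176.5, 160.2 and 159.1 CPM, and IgG1 PC had 143.8, 154.6 and 140.4 CPM. In each of those 3 groups every library lay above the D6 libraries in CPM. The order was another in TPM, where the iGC means were highest (32.5 for IgE and 30.5 for IgG1). There IgE PC had 21.3 ± 0.531 and IgG1 PC had 17.9 ± 2.65, against 22.5 ± 1.39 in D6. IgE PC exceeded IgG1 PC by 0.42 on the log2 scale (1.33-fold, SE 0.06, adjusted p = 4.39e-05). The paths from iGC to PC differed by 0.31 (SE 0.09, adjusted p = 0.0114), made up of 0.13 in IgE cells (SE 0.06, adjusted p = 0.0802) and -0.18 in IgG1 cells (SE 0.06, adjusted p = 0.0248). That difference did not pass with total-count scaling (0.07) or in TPM (0.16), and the IgE value turned to -0.34 and -0.58 in these, while it passed at 0.15 with DESeq2's size factors or test and in a fit on these 6 libraries alone. The IgG1 value did not pass without library 1 of IgG1 iGC (-0.13, adjusted p = 0.12) or library 3 of IgG1 PC (-0.15, adjusted p = 0.0858), nor in a fit on these 6 libraries alone (-0.16, adjusted p = 0.115).

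**Figure D3:**
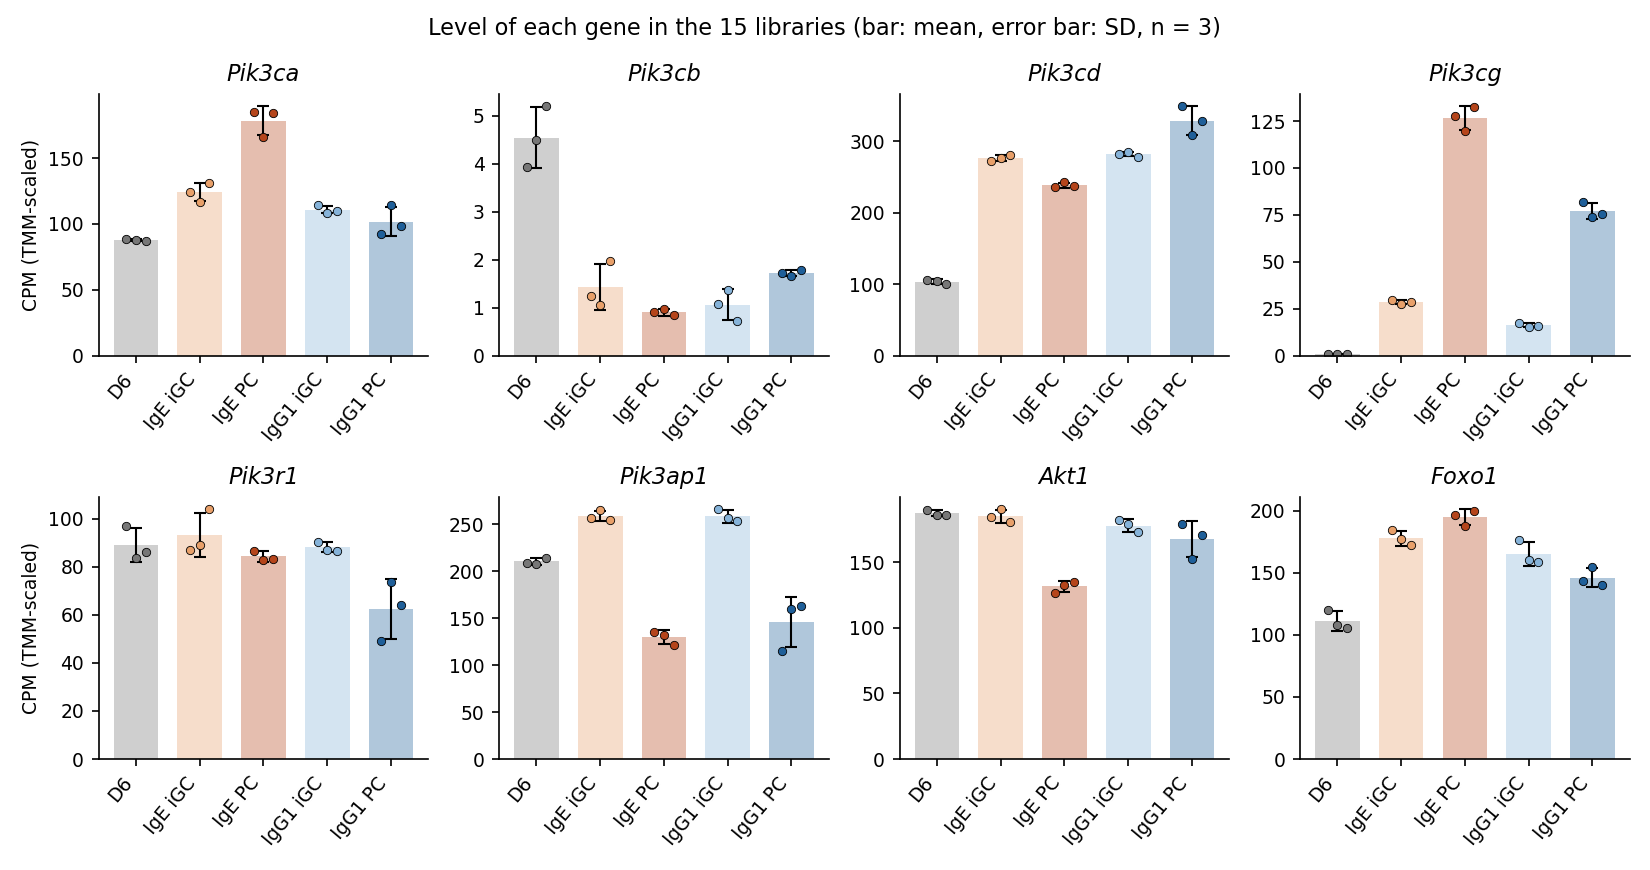
Level of each of the 8 genes in TMM-scaled CPM, one panel a gene with its own linear axis from 0; bars are group means, error bars the SD and points the 3 libraries. Pik3cg climbs from below 1 CPM in D6 to 119.9 to 132.5 CPM in IgE PC, and Akt1 is lowest and Pik3ca highest in IgE PC.

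Read by comparison, IgE and IgG1 cells differed for most members as PCs and for 1 member as iGC cells. Between the PCs 7 of 8 members passed, 4 higher and 3 lower in IgE, where 58.1% of all genes tested passed (27.4% higher, 30.7% lower). With total-count scaling the split was 3 higher and 4 lower. None of these 7 reached a 2-fold difference, which 17.8% of all genes did. Between the iGC groups Pik3cg alone passed, where 3.87% of all genes did (1.99% higher, 1.88% lower), and a fit on these 6 libraries alone added Pik3ca (0.15, adjusted p = 0.047). The interaction, which asks whether the change from iGC to PC is the same in both isotypes, passed for 5 of 8 members (Pik3ca and Foxo1 higher in IgE, Pik3cb, Pik3cd and Akt1 lower) against 42.9% of all genes (19.8% higher, 23.1% lower). With total-count scaling this split was 1 higher and 4 lower.

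From iGC to PC 5 of 8 members passed in IgE cells, 2 higher (Pik3ca and Pik3cg) and 3 lower (Pik3cd, Pik3ap1 and Akt1), where 64.1% of all genes passed (30.5% higher, 33.6% lower). In IgG1 cells 6 of 8 passed, 3 higher (Pik3cb, Pik3cd and Pik3cg) and 3 lower (Pik3r1, Pik3ap1 and Foxo1), where 59.1% of all genes passed (30.1% higher, 29.0% lower). With total-count scaling these splits were 1 higher and 6 lower in IgE, and 1 higher and 5 lower in IgG1, and the higher one was Pik3cg in both. In TPM each split was 1 higher and 6 lower. Pik3cg rose and Pik3ap1 fell in both isotypes under each of these scalings. Pik3r1, Akt1 and Foxo1 also fell in both with total-count scaling and in TPM, and Pik3cd did so in TPM. The 8 genes were not tested against other genes as a set.

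**Figure D4:**
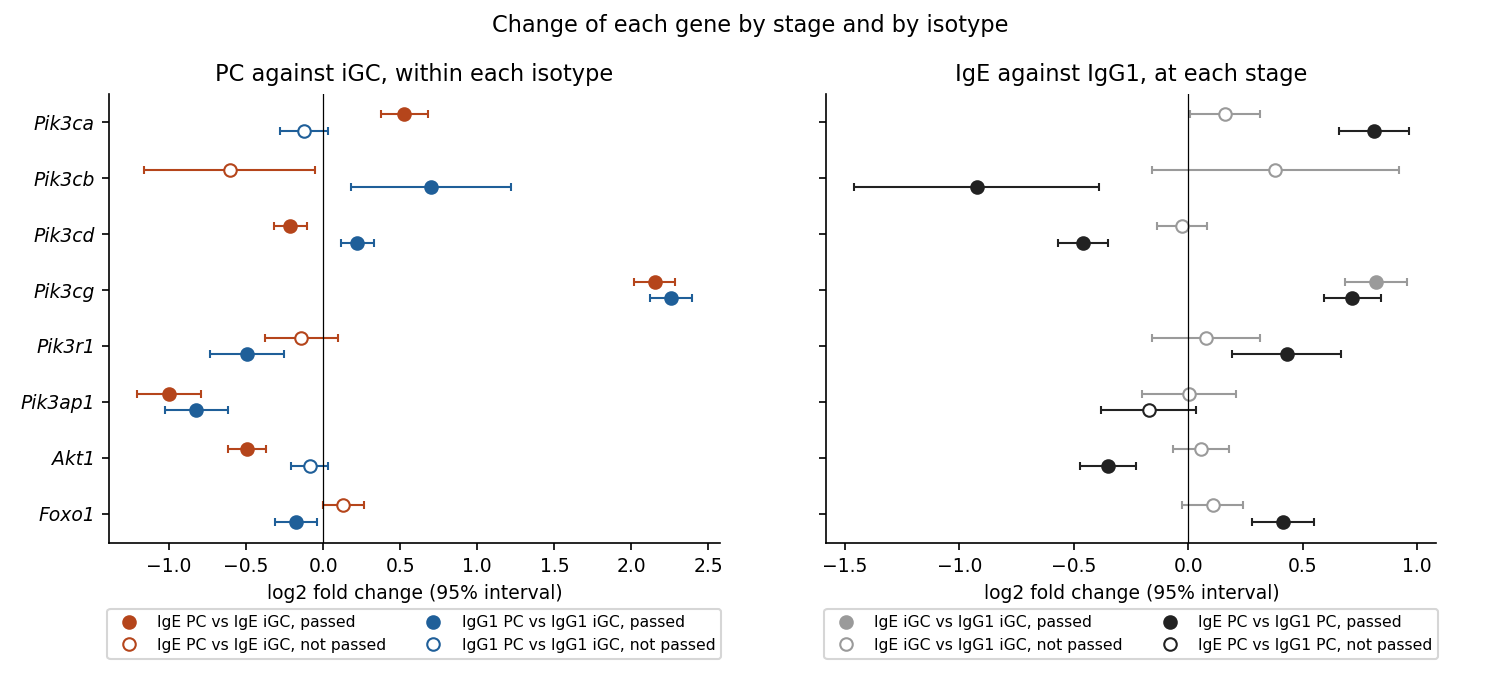
Log2 fold change of each gene with its 95% interval, from iGC to PC within each isotype (left) and between isotypes at each stage (right); filled points passed an adjusted p of 0.05. Pik3cg lies above 2 in both isotypes on the left, and the sign of the Pik3cd change in IgG1 cells and of the Foxo1 change in IgE cells turns with total-count scaling.

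Against the day 6 culture, the 4 sorted groups share their reference libraries, so their values are set side by side only. In IgE iGC 6 members passed (69.1% of all genes), in IgG1 iGC 6 (68.4%), in IgE PC 7 (76.4%) and in IgG1 PC 8 (71.9%). Pik3cg was higher by 5.19, 4.36, 7.34 and 6.62 on the log2 scale in IgE iGC, IgG1 iGC, IgE PC and IgG1 PC. Pik3cd was higher by 1.42, 1.45, 1.21 and 1.67 in the same order, but in TPM its PC values were 0.19 and 0.80, and that of IgE PC was 0.67 with total-count scaling. Pik3cb changed by -1.71, -2.09, -2.32 and -1.40. Pik3ap1 was the one member that stood above D6 in both iGC groups (0.30 and 0.30) and below it in both PC groups (-0.70 and -0.53). The iGC calls of Pik3ap1 did not pass with total-count scaling or in TPM. Foxo1 was higher by 0.68, 0.57, 0.81 and 0.39, but in TPM its PC values were -0.07 and -0.32, and that of IgG1 PC did not pass with total-count scaling (0.11, adjusted p = 0.132). Pik3ca was higher by 0.50, 0.34, 1.03 and 0.21, the last of which was -0.06 with total-count scaling and -0.46 in TPM. Stage, day, sorting and the removal of feeders and IL-4 all differ between D6 and the sorted groups and cannot be told apart.

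The genes whose levels over the 15 libraries ran most like each member's were sought among 8236 genes, by the root mean square of the difference in centred log2 CPM. Those nearest to Pik3cg were Lrrn3 (0.56), Crisp3 (0.65) and H2-T24 (0.68), on a spread of Pik3cg itself of 2.54. Among those nearest to Foxo1 were Pnrc1 (0.07) and Stim1 (0.07) on a spread of 0.29, and nearest to Pik3ca were Mtmr1 (0.05), Togaram1 (0.07) and Parp14 (0.08) on a spread of 0.35. The nearest to Akt1 were Chtf8, Mrps9 and Pym1 (each 0.06) on a spread of 0.19. For Pik3cd they were Rmnd1 (0.09), Tedc1 (0.10) and Cd52 (0.10) on a spread of 0.59. For Pik3ap1 they were Cdyl2 (0.07), Swap70 (0.07) and Dip2b (0.09) on a spread of 0.43. For Pik3r1 they were Fam13b (0.08), Med1 (0.09) and Ncoa1 (0.09) on a spread of 0.25. Those of Pik3cb were less close, with Timd2 (0.30), Zfand2a (0.32) and Tanc1 (0.33) on a spread of 0.84.

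Around the members, 87 of the 93 other pathway genes could be tested. Those left out for low counts were Pik3c2g, Icos, Foxo6, Il7r, Rag1 and Rag2. From IgE PC to IgG1 PC 62 of the 87 differed (71.3%, where 58.1% of all genes did), 38 higher and 24 lower in IgE, or 21 and 44 with total-count scaling and 23 and 26 in TPM. From iGC to PC 72 changed in IgE cells (82.8%, where 64.1% of all genes did), 37 higher and 35 lower (22 and 50 with total-count scaling, 14 and 56 in TPM), and 67 in IgG1 cells (77.0%, where 59.1% did), 28 higher and 39 lower (15 and 51, 12 and 65). Between the iGC groups 6 differed (6.90%, where 3.87% of all genes did). For 51 the step from iGC to PC was not the same in both isotypes (58.6%, where this held for 42.9% of all genes), 29 higher and 22 lower in IgE (14 and 32, 10 and 19). The median log2 differences of the 87 were 0.05 between PCs and 0.01 and -0.09 for the stage changes in IgE and IgG1, beside -0.05, -0.08 and 0.01 over all genes.

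The other class I subunits include the partners of the gamma subunit. Pik3r5 and Pik3r6 encode the regulatory proteins that pair with it, and both rose with Pik3cg from D6 to the sorted groups, by 2.84 and 2.19 on the log2 scale in IgE iGC. Pik3r5 had 51.4 ± 1.91 CPM (SD, n = 3) in IgE iGC and 53.0 ± 1.76 CPM in IgE PC, against 39.1 ± 0.935 CPM in IgG1 iGC and 80.6 ± 9.66 CPM in IgG1 PC. It thus rose in IgG1 cells (1.04, SE 0.07, adjusted p = 1.44e-08), and the isotypes differed in that change (-0.997, SE 0.11, adjusted p = 3.67e-06). Pik3r6 had 24.2 ± 2.24 CPM in IgE iGC and 20.5 ± 0.186 CPM in IgE PC, a log2 change of -0.23 (adjusted p = 0.036) that was 0.00 in TMM-scaled TPM.

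Of the 15 receptors and adaptors that could be tested, 13 passed between the PCs, where 58.1% of all genes did, with 4 higher and 9 lower in IgE (2 and 11 with total-count scaling, 3 and 7 in TPM). Cd28, a co-stimulatory receptor that binds PI3K, rose from 0.835 ± 0.165 CPM in IgE iGC to 61.5 ± 4.80 CPM in IgE PC, and from 0.846 ± 0.179 to 17.1 ± 2.92 CPM in IgG1 cells. Its change was larger in IgE cells by 1.81 (SE 0.33, adjusted p = 0.000509). Irs2, an adaptor below the insulin and IL-4 receptors, rose by 1.68 and 1.72 in IgE and IgG1 cells. Cr2, a complement receptor of B cells, fell by 3.32 and by 2.32 on the log2 scale. Il4ra, the IL-4 receptor chain, went from 387.8 ± 28.1 to 100.7 ± 9.17 CPM in IgE cells and from 380.3 ± 7.44 to 180.9 ± 11.6 CPM in IgG1 cells. Syk, the kinase next to the antigen receptor, was lower in IgE cells at both stages (-0.75 as iGC cells, -1.08 as PCs).

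Among 12 phosphatases and inhibitors 8 passed between the PCs, or 66.7% against 58.1% of all genes, with 5 higher and 3 lower in IgE (5 and 6 with total-count scaling). Inpp4b, which removes a phosphate from the PI3K product PI(3,4)P2, had 69.2 ± 4.81 CPM in IgE PC and at most 18.1 CPM on average in each other group. Phlpp2, a phosphatase of AKT, had 95.7 ± 0.343 CPM in IgE PC against 46.2 ± 6.11 CPM in IgG1 PC, a log2 difference of 1.05 (SE 0.08, adjusted p = 2.08e-08). Its relative Phlpp1 went the other way, with 23.5 ± 6.44 CPM in IgG1 PC and less in IgE PC (-1.11, SE 0.15, adjusted p = 2.05e-05). Pik3ip1, a membrane inhibitor of PI3K, fell in both isotypes from about the same level, 30.9 ± 1.87 and 31.9 ± 0.832 CPM, to 6.34 ± 0.497 CPM in IgE PC but 15.1 ± 1.36 CPM in IgG1 PC. In IgG1 cells all 8 that passed from iGC to PC were lower, where 59.1% of all genes passed (30.1% higher, 29.0% lower).

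The 13 PIP3 effectors and AKT kinases and the 18 genes of the mTOR complexes and AKT substrates lie further down the route. Plekha1, a protein that binds the lipid PI(3,4)P2, had 64.2 ± 1.81 CPM in IgE PC and between 21.0 and 21.9 CPM on average in each other group. Pdpk1, the kinase that activates AKT, had 154.5 ± 7.39 CPM in IgE PC against 97.3 ± 14.7 CPM in IgG1 PC (log2 difference 0.67, SE 0.08, adjusted p = 5.3e-06). Sgk3, a kinase related to Akt1, fell from iGC to PC by 1.68 on the log2 scale in IgE cells and fell by 1.47 in IgG1 cells. In the mTOR list 12 genes were higher and 2 lower in PC than in iGC cells of both isotypes (77.8% of the list, where 64.1% and 59.1% of all genes passed), but with total-count scaling this was 6 and 4 in IgE and 3 and 5 in IgG1, and in TPM 2 and 8, and 2 and 13. Eif4ebp1, which holds back translation until mTOR phosphorylates it, kept its direction under each scaling tried, with a rise of 2.20 in IgE and of 1.03 in IgG1 cells. Rps6kb1, the S6 kinase, had 162.3 ± 11.3 CPM in IgE PC against 89.6 ± 4.99 CPM in IgG1 PC.

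Foxo3 and Foxo4, the relatives of Foxo1 that could be tested, were both higher in IgE PC than in IgG1 PC (0.76 and 0.59). Foxo3 rose from iGC to PC by 1.33 in IgE cells and by 0.78 in IgG1 cells. Of 19 tested genes linked to FOXO1 in B cells, 18 changed from iGC to PC in each isotype, where 64.1% (IgE) and 59.1% (IgG1) of all genes did, with 8 higher and 10 lower in IgE and 7 higher and 11 lower in IgG1. In TPM these splits were 5 and 13, and 3 and 14. Among the falls, Bcl6, a repressor that plasma cells switch off, fell by 2.39 on the log2 scale in IgG1 cells. Ccr7, a homing receptor, was at 5.12 ± 0.271 CPM in IgE PC against 48.5 ± 9.99 CPM in IgG1 PC, a log2 difference of -3.25 (SE 0.14, adjusted p = 2.37e-10). The rises included Gadd45a, a stress response gene (2.27 in IgE and 1.13 in IgG1), and Cdkn1b, a cell cycle inhibitor (1.13 in IgE). Bcl2l11, which encodes the pro-apoptotic protein BIM and held the 7 bases in its promoter window, reached 206.7 ± 6.94 CPM in IgG1 PC and 119.0 ± 2.06 CPM in IgE PC.

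**Figure D5:**
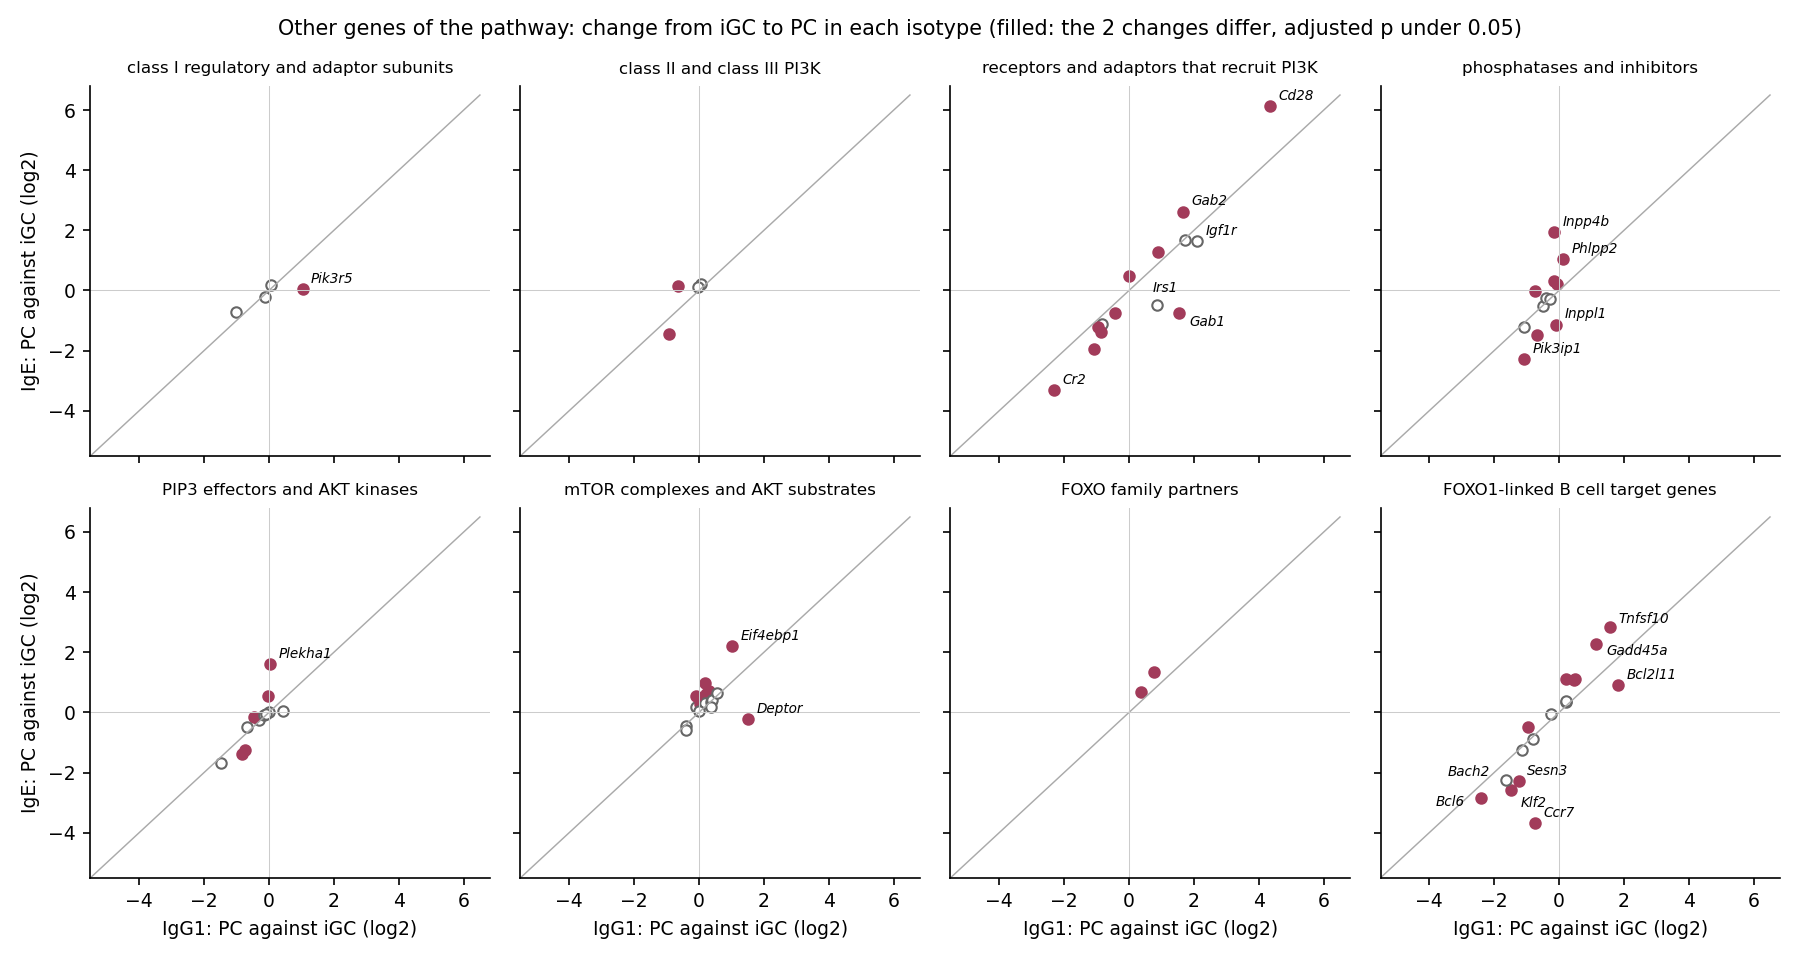
Log2 change from iGC to PC of the other pathway genes reported here in IgG1 cells (horizontal) and IgE cells (vertical), one panel a list; points on the diagonal changed alike and filled points differed between isotypes at an adjusted p of 0.05. Ccr7 lies below the diagonal, and Cd28 and Inpp4b lie above it.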

How the data were processed

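Per the labels' protocols, polyA RNA was made into strand-specific libraries with a KAPA mRNA HyperPrep kit and read as 76 bp single ends. The submitters' processing notes name cutadapt 1.9.1, STAR 2.5.2a, RSEM 1.3.0, DESeq2 1.12.3 and build GRCm38, with no roles given. The authors deposited RSEM's expected counts for each gene, where a read that matches several genes is divided between them, and TPM values, which are scaled for length and library total. At least 90.9% of the expected counts in each library were whole, and the number of unmapped sample columns was 0. Symbols were found for 51633 of 51912 identifiers.

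The expected counts were rounded, filtered with filterByExpr (minimum count 10, total 15), scaled by TMM and fitted over all 15 libraries with edgeR 4.0.16 (glmQLFit, robust, and glmQLFTest; R 4.3.3), with a biological coefficient of variation of 10.4% and 10 residual degrees of freedom. A gene passed when its p-value, adjusted by Benjamini and Hochberg's method over all 15692 genes, was under 0.05. An SE is the size of the log2 fold change divided by the square root of F, which is approximate. Recovery was run on simulated counts for IgE PC against IgG1 PC, with 200 of 15692 genes changed. It was 64.5% for 1.5-fold changes, 84.0% for 2-fold changes and 98.5% for 4-fold changes. Recovery with as many changes as in the data, where 58.1% of all genes passed, was not tested. The simulated counts had the same biological coefficient of variation for every gene and no outlying library. Recovery with a spread that differs between genes was therefore not tested either. Shares of summed TPM were tested by exact permutation (scipy 1.17.1). The members, lists and naming rule were chosen with earlier results of these data known. All members are named; of each list, in each of the 5 contrasts between sorted groups, the up to 2 genes with the largest rise and the up to 2 with the largest fall could be named if they passed and had a mean of at least 10 CPM in a group compared, and values of such a gene in other contrasts are given beside it. Some genes enter the counts over lists and are not reported here by name. Locations are from GENCODE vM21 and promoter windows from RefSeq. The labels do not say whether equal replicate numbers share an animal or culture, so p-values measure the spread between these samples. Alternatives were RLE factors, total-count scaling, no filter, only the groups compared, a replicate block, DESeq2 1.42.0, limma 3.58.1 on log2(TPM + 1) and log2(TPM + 0.1), each library left out in turn and, added after the data were seen, log2 of TMM-scaled TPM.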

Additional observations from a re-analysis of the deposited data

Results flagged for a closer look

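For 5 of the 8 members the step from iGC to PC was unlike in IgE and IgG1 cells, by a test of the difference itself, which 42.9% of all genes passed. For Pik3ca the difference, IgE minus IgG1, was 0.65 on the log2 scale. Under TMM scaling it came with a rise in IgE cells and no passing change in IgG1 cells. With total-count scaling the IgE change was 0.05 and did not pass, while the IgG1 change was -0.35 and passed. On log2(TPM + 1) these changes were -0.13, which did not pass, and -0.83, which passed. For Pik3cb it was -1.30, with low counts in all sorted libraries and a fibroblast marker sum whose group means, though not its single libraries, ran in the same order. That difference did not pass on log2(TPM + 1) or TMM-scaled TPM. Among the sorted groups no neighbouring step in the order of Pik3cb levels passed. For Pik3cd it was -0.43, with changes of opposite sign in both isotypes under TMM scaling of the counts. The IgG1 rise of 0.22 was not kept with total-count scaling (-0.01), on log2(TPM + 1) (-0.57) or in TMM-scaled TPM (-0.02). For Akt1 it was -0.41, with a fall in IgE cells and no passing change in IgG1 cells under TMM scaling. That IgG1 change of -0.09 was -0.32 with total-count scaling and -0.70 on log2(TPM + 1), both of which passed. For Foxo1 it was 0.31, the smallest of the 5, and did not pass with total-count scaling (0.07, adjusted p = 0.576) or on log2(TPM + 1) (0.16, adjusted p = 0.373).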

How the results depend on the processing

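Of 72 member values (8 genes in 9 contrasts), 45 kept their direction and their side of the threshold under all alternatives, and 58 did so when total-count scaling and unscaled TPM were left aside. The replicate block changed none of the 72 calls. Equal replicate numbers did not deviate together (mean correlation -0.01, none of 30 pairs over 0.1), so the numbers were not taken to pair the libraries.

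The count of members called between the iGC groups moved from 1 to 2 when only the groups compared were fitted, and that of pathway genes from 6 to 20, or to 10 with DESeq2. For the interaction, log2(TPM + 1) gave 3 members and 29 pathway genes, and log2(TPM + 0.1) gave 30 pathway genes, in place of 5 and 51. Directions reversed as follows, with total-count scaling first, then log2(TPM + 1) and log2(TPM + 0.1) where each applies. From IgE iGC to IgE PC, Foxo1 turned to -0.34, -0.58 and -0.60, and Pik3ca in TPM to -0.13 and -0.13. From IgG1 iGC to IgG1 PC, Pik3cd turned to -0.0137, -0.57 and -0.57, and to -0.0182 in TMM-scaled TPM. Against D6, Pik3ca in IgG1 PC turned to -0.0645, -0.46 and -0.48, and Foxo1 in TPM to -0.0745 and -0.0775 in IgE PC and to -0.32 and -0.34 in IgG1 PC. The cause was not tested. Against D6 the calls for Akt1 and Pik3ca in IgG1 PC did not pass without library 2 of IgG1 PC (-0.08 and 0.14), and that for Akt1 not without library 1 of D6 (-0.15). Depth limits Pik3cb in sorted cells and Pik3cg in D6 most, at 23.6 to 85.6 and 31 to 34 expected counts a library.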
